A study of Mus musculus with 6 samples.

Results

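Motile cilia are the beating hairs of airway epithelium, and the genes that build them were compared between the lungs of 2 kinds of F1 mice. The list held 44 genes, taken as a set of axoneme, assembly and regulatory genes. A gene was measured where the platform annotation gave a probe set its symbol alone, and the probe set with the highest mean over all 6 arrays stood for the gene. Of the 44 genes, 41 had such a probe set, and 38 of these lay above a filter on low signal and were tested, among 13202 tested genes in all. Cfap44, Sntn and Mcidas had no probe set under that rule, and Ccdc65, Spag6 and Spag17 lay below the filter.

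Lung RNA came from adult female mice and was hybridised to 6 arrays. Offspring of AKR/J and FVB/NJ parents gave 3 of them, called AKR_F1 here, and offspring of DBA/2J and FVB/NJ parents gave the other 3, called DBA_F1. The series asks which genes differ at baseline between these genotypes. Every mouse carried an FVB/NJ chromosome set beside that of the other strain, and the labels name no treatment other than Avertin anaesthesia at euthanasia. Which strain was the mother is not stated. Lungs were snap frozen before total RNA was extracted. Nothing in the labels ties an array to its own animal, so p-values measure only the spread between these samples, which may be technical.

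A motile cilium is built on an axoneme, a ring of microtubule doublets around a central pair. Dynein motors on the doublets slide them past each other, radial spokes and the nexin-dynein regulatory complex (N-DRC) link and coordinate the doublets, and the dynein arms are put together in the cytoplasm by dedicated factors before they enter the cilium. In the airway these cilia sit in large numbers on ciliated cells, where they move mucus, and the transcription factor Foxj1 together with factors of the RFX family turns on the genes needed for them. Loss of many of these proteins causes primary ciliary dyskinesia in people.

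RefSeq promoter sequences of the mouse GRCm38.p6 assembly were matched to 39 of the 44 genes. The letters GTTGCC, the core of the X-box bound by RFX factors, stood on either strand within 250 bases before a start in 16 of these 39 genes, or 41.0%. The letters were held by 11.8% of all 27025 genes with such a sequence. The longer spelling GTTGCCNNG, which contains the first, was present in 11 of the 39 genes (28.2%) and in 4.71% of all genes. The forkhead core TGTTTAC, read on both strands, was present in 3 of the 39 genes (7.69%) and in 3.54% of all genes. Such matches describe the letters only.

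Tekt4, Tctex1d4 and Dnaic2 had some of the largest differences in either direction, and Tekt1 and Tekt2 belong to the family of Tekt4. The 100 bases before the most upstream start are therefore shown for the 3 tektins of the list, Dnaic2 and Tctex1d4. Each reads 5′ to 3′ on the strand of its gene, and capitals mark GTTGCC or its reverse complement GGCAAC.
Tekt1, chr11:72361883-72361982, minus strand: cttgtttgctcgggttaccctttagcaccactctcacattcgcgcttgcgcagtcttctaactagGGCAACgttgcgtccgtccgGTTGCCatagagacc
Tekt2, chr4:126325689-126325788, minus strand: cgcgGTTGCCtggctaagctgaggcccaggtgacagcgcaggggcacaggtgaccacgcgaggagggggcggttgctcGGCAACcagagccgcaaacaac
Tekt4, chr17:25471490-25471589, plus strand: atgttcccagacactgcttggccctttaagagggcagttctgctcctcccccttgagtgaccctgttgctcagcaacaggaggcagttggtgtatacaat
Dnaic2, chr11:114727319-114727418, plus strand: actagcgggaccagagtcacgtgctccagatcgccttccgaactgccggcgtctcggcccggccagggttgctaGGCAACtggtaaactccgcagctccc
Tctex1d4, chr4:117126713-117126812, plus strand: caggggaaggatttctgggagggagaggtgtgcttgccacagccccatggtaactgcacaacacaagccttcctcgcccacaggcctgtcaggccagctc
Matches began 35 and 15 bases before the start in Tekt1, 96 and 22 bases before it in Tekt2, and 26 bases before it in Dnaic2. The windows of Tekt4 and Tctex1d4 held no exact copy of either spelling. Close spellings, such as gttgct and agcaac in Tekt4, were not counted, so the lack of a match does not show that an RFX site is absent. Among tested genes with a promoter sequence, the 12 with GTTGCC had a median difference of -0.066 log2 (AKR_F1 minus DBA_F1, as throughout) and the 21 without it had -0.12. Differences from -0.44 to 0.39 among the 12 and from -0.45 to 0.048 among the 21 overlapped widely. The -0.44 among the 12 is that of Dnah7a, which holds GTTGCC but is not among the promoters shown. The promoters shown therefore do not stand for the list.

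The arrays carried the alveolar signal of lung, in that 11 alveolar epithelial markers averaged 12.31 to 12.44 log2 on AKR_F1 arrays and 12.16 to 12.29 on DBA_F1 arrays. Pearson correlations between arrays across tested probe sets lay between 0.965 and 0.995. Squamous epithelium and skeletal muscle markers set AKR_F1 replicates 1 and 2 apart from the other 4 arrays. In replicate order, 9 squamous markers averaged 4.71, 4.76 and 9.90 in AKR_F1, against 9.60, 10.17 and 9.51 in DBA_F1. Results on cilia genes are therefore also given without AKR_F1 replicates 1 and 2.

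Most cilia genes had slightly lower signal in AKR_F1 lung, and no single gene passed the test. Of the 38 tested genes 0 were called by limma at an adjusted p under 0.05, while 2.48% of all tested genes were. At an unadjusted p under 0.05, 8 genes (21.1%) were lower in AKR_F1 and 1 (2.63%) was higher, beside 8.41% and 10.7% of all tested genes. In all, 29 differences were negative and 9 positive. The median difference was -0.081 log2, beside 0.015 over all tested genes, of which 44.9% were negative. That median was -0.14 without AKR_F1 replicate 2, -0.048 without AKR_F1 replicate 1 and -0.048 without DBA_F1 replicate 1.

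Signals of 9 genes (23.7%) were lower on every AKR_F1 array than on any DBA_F1 array, as in 10% of all tested genes. For 1 gene (2.63%), Dnaic2, they were higher on every AKR_F1 array, as in 14.2% of all tested genes. In the other 28 genes the groups overlapped. Both these 9 genes and the 8 that were lower at an unadjusted p under 0.05 include Dnah7a. Its AKR_F1 mean, 4.54, was under the filter on low signal (4.72), so it was tested through its DBA_F1 signal. The count of 9 was 19 without AKR_F1 replicate 2, where fewer arrays make overlap rarer. The share of all tested genes was not counted for that smaller set of arrays, so 19 has no value to set beside it. In bulk tissue, fewer ciliated cells and less RNA per ciliated cell cannot be told apart.

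**Figure D1:**
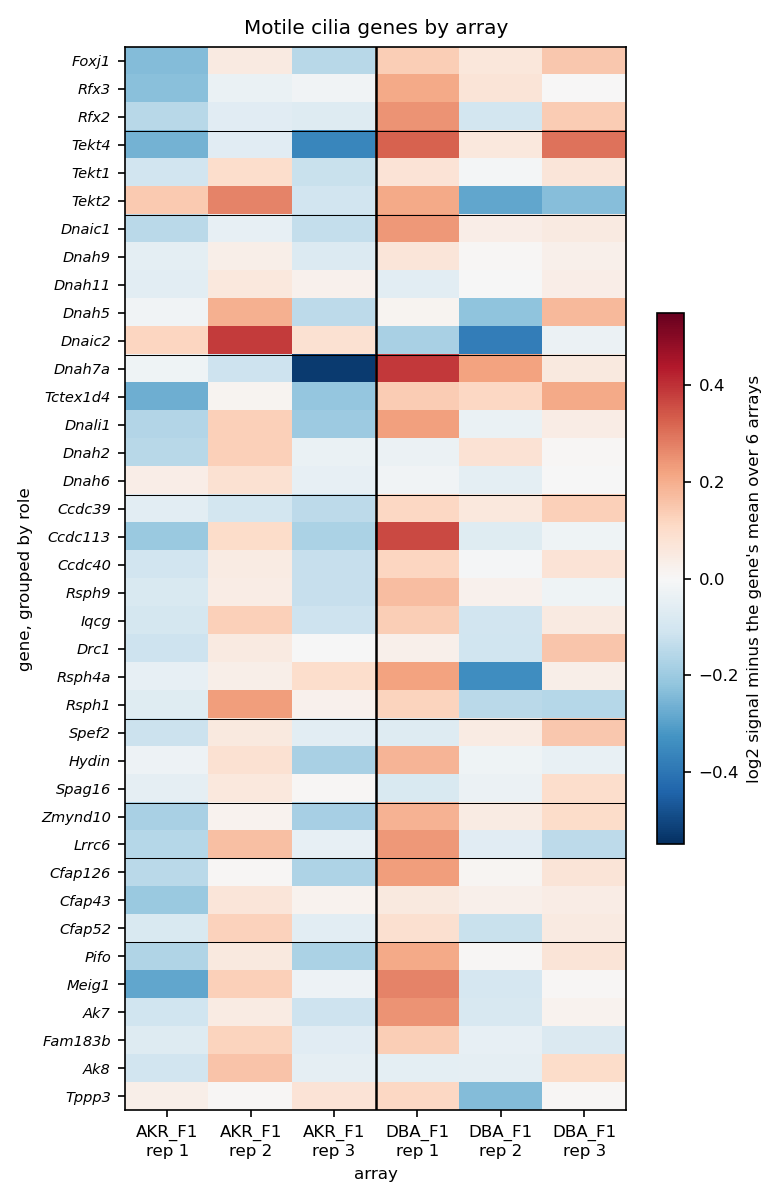
Log2 signal of the 38 tested cilia genes on each array (columns, AKR_F1 left of DBA_F1) minus the mean of that gene over the 6 arrays. Rows are grouped by role from regulators at the top to other cilia genes at the bottom. AKR_F1 replicate 2 and DBA_F1 replicate 1 are red in most rows, and AKR_F1 replicates 1 and 3 are blue in most.

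By the probe sets used, the regulators had small negative differences. Foxj1, the master transcription factor of motile cilia, had 7.42, 7.71 and 7.51 log2 in AKR_F1 lung, against 7.80, 7.72 and 7.81 in DBA_F1 lung. The groups did not overlap, but AKR_F1 replicate 2 came close to DBA_F1 replicate 2. Its difference was -0.23 ± 0.083 (SE, limma adjusted p = 0.213, 95% interval -0.42 to -0.033). Rfx3, an RFX factor that activates ciliary genes, had 5.77, 5.97 and 5.99 in AKR_F1 lung, against 6.22, 6.08 and 6.01 in DBA_F1 lung. AKR_F1 replicate 3 and DBA_F1 replicate 3 nearly met, and the difference was -0.19 ± 0.092 (adjusted p = 0.325), or -0.12 without AKR_F1 replicate 1. Rfx2, its close relative, had 6.50, 6.59 and 6.58 in AKR_F1 lung, against 6.90, 6.55 and 6.79 in DBA_F1 lung. Here DBA_F1 replicate 2 lay among the AKR_F1 arrays, and the difference was -0.19 ± 0.098 (adjusted p = 0.353). Leaving out DBA_F1 replicate 1 gave -0.11, and leaving out DBA_F1 replicate 2 gave -0.29. Other probe sets of Rfx2 lay below the filter and were not tested. They gave -0.047, 0.068 and 0.24, the last with every AKR_F1 array above every DBA_F1 array. The other probe set of Rfx3, also below the filter, gave -0.14 with overlap.

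The tektins form filaments along the doublets, and the 3 tektin genes of the list differed in sign. Tekt4 had the largest difference of the list. Its signal was 6.56, 6.75 and 6.46 log2 in AKR_F1 lung, against 7.14, 6.87 and 7.11 in DBA_F1 lung. Every AKR_F1 array was below every DBA_F1 array, by 0.45 log2 between means (-0.45 ± 0.11, adjusted p = 0.0855), or 1.37-fold higher in DBA_F1. Tekt1 had 6.04, 6.24 and 6.02 in AKR_F1 lung and 6.21, 6.13 and 6.20 in DBA_F1 lung, with overlap and a difference of -0.084 ± 0.083 (adjusted p = 0.641). That difference was -0.15 without AKR_F1 replicate 2, -0.054 without AKR_F1 replicate 1 and -0.045 without AKR_F1 replicate 3. Tekt2 had the opposite sign, with 6.50, 6.63 and 6.25 in AKR_F1 lung and 6.57, 6.07 and 6.12 in DBA_F1 lung. Its difference of 0.21 ± 0.16 (adjusted p = 0.534) was smaller than the spread among DBA_F1 arrays (SD 0.27), and it ranged from 0.12 (without AKR_F1 replicate 2 or DBA_F1 replicate 2) to 0.36 (without DBA_F1 replicate 1) with 1 array left out. With AKR_F1 replicate 3 alone against DBA_F1 it was -0.0036.

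Outer dynein arm genes held both signs. Dnaic2, an intermediate chain of the outer arm, was the only one of the 38 genes that was higher on all AKR_F1 arrays by the probe sets used. It had 5.95, 6.22 and 5.92 log2 in AKR_F1 lung, against 5.65, 5.45 and 5.80 in DBA_F1 lung, a difference of 0.39 ± 0.12 (adjusted p = 0.159). Its partner intermediate chain Dnaic1 had 5.91, 6.02 and 5.93 in AKR_F1 lung, against 6.30, 6.10 and 6.11 in DBA_F1 lung. The groups of Dnaic1 did not overlap either, in the opposite direction (-0.22 ± 0.082, adjusted p = 0.225), and its second tested probe set gave -0.35 ± 0.081 (adjusted p = 0.0835). The brightest probe sets of Dnaic1 and Dnaic2 are of a design class that may also bind related transcripts. The second probe set of Dnaic2 is not of that class, and it gave -0.037 with overlapping groups. It lay below the filter on low signal and was not tested, so it cannot decide the direction. The higher AKR_F1 signal of Dnaic2 thus rests on 1 probe set. The outer arm heavy chains Dnah5, Dnah9 and Dnah11 had differences of 0.020, -0.064 and 0.015, all with overlapping groups.

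Inner arm and light chain genes had 4 negative differences of 5. Dnah7a, an inner arm heavy chain, had 4.74, 4.65 and 4.24 log2 in AKR_F1 lung, against 5.15, 4.98 and 4.82 in DBA_F1 lung. The groups did not overlap, AKR_F1 replicate 3 was far below the others, and the difference was -0.44 ± 0.15 (adjusted p = 0.199), or -0.29 without that array. Its AKR_F1 mean, 4.54, was under the filter on low signal (4.72), and such signal may be mostly background, which makes the size uncertain. Tctex1d4, of the Tctex-type dynein light chain family, had 6.25, 6.54 and 6.31 in AKR_F1 lung, against 6.66, 6.63 and 6.73 in DBA_F1 lung. Its groups did not overlap (-0.31 ± 0.090, adjusted p = 0.139). The light intermediate chain Dnali1 had 7.73, 8.03 and 7.69 in AKR_F1 lung and 8.12, 7.86 and 7.93 in DBA_F1 lung. Its 2 tested probe sets gave differences of -0.15 and -0.22. The first was -0.26 without AKR_F1 replicate 2, -0.092 without AKR_F1 replicate 3 and -0.079 without DBA_F1 replicate 1. The heavy chains Dnah2 and Dnah6 had -0.037 and 0.048, with overlapping groups as in Dnali1.

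**Figure D2:**
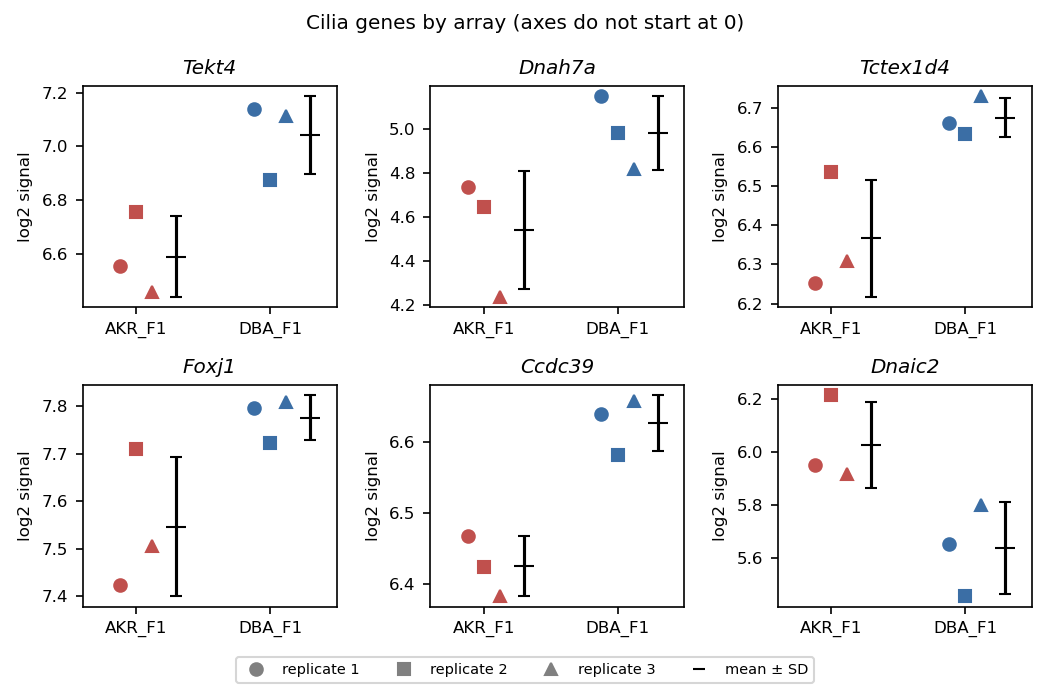
Log2 signal of 6 cilia genes on each array, AKR_F1 left (red) and DBA_F1 right (blue), with marker shape giving the replicate number and black bars the mean ± SD of 3 arrays. The 2 groups do not overlap in any of the 6, and Dnaic2 is the gene with the higher AKR_F1 values.

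Genes of the spokes, rulers and N-DRC differed little. Ccdc39, a ruler protein that sets the repeat of the axoneme with Ccdc40, had 6.47, 6.42 and 6.38 log2 in AKR_F1 lung, against 6.64, 6.58 and 6.66 in DBA_F1 lung. These arrays were tight (SD 0.042 in AKR_F1 and 0.039 in DBA_F1) and did not overlap, with a difference of -0.20 ± 0.063 (adjusted p = 0.161). The other probe sets of Ccdc39 had means of 2.66 and 2.47, below the filter, and were not tested. They gave -0.12 and 0.12 with overlapping groups, so the difference of Ccdc39 rests on the probe set used alone. Ccdc40 had -0.13 ± 0.074 with overlap. Among radial spoke head genes, Rsph1 had 0.12, Rsph4a 0.058 and Rsph9 -0.11, and in the N-DRC Drc1 had -0.045 and Iqcg -0.053. Ccdc113, a coiled-coil protein of cilia, had -0.18 ± 0.14, with DBA_F1 replicate 1 at 5.42 above the other 5 arrays. All of these overlapped between groups except Ccdc39. The central apparatus genes Spef2, Hydin and Spag16 had -0.081, -0.079 and 0.010, also with overlap.

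Zmynd10, a factor for dynein arm preassembly, had 6.26, 6.45 and 6.25 log2 in AKR_F1 lung, against 6.63, 6.48 and 6.54 in DBA_F1 lung. AKR_F1 replicate 2 reached nearly to DBA_F1 replicate 2, and the difference was -0.23 ± 0.083 (adjusted p = 0.215). Lrrc6, which acts with Zmynd10, had -0.023 ± 0.13. Cfap126, the ciliary protein Flattop, had 8.35, 8.50 and 8.33 in AKR_F1 lung, against 8.73, 8.51 and 8.57 in DBA_F1 lung. AKR_F1 replicate 2 and DBA_F1 replicate 2 were almost level, with a difference of -0.21 ± 0.078 (adjusted p = 0.223). Cfap43 had -0.081 and Cfap52 -0.0097 by the probe sets used, and their other tested probe sets gave -0.017 and 0.086. That other probe set of Cfap52 was higher on every AKR_F1 array than on any DBA_F1 array. It had 4.99, 5.12 and 4.97 in AKR_F1 lung, against 4.95, 4.92 and 4.95 in DBA_F1 lung (limma adjusted p = 0.611).

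The remaining genes had groups that overlapped. Tppp3, a tubulin polymerization factor, had 11.44, 11.41 and 11.48 log2 in AKR_F1 lung and 11.52, 11.17 and 11.42 in DBA_F1 lung (0.076 ± 0.087, adjusted p = 0.696). Only DBA_F1 replicate 2 stood below the rest, and without it the difference was -0.024. Without DBA_F1 replicate 1 it was 0.15. The adenylate kinase gene Ak7 had 8.43, 8.58 and 8.42 in AKR_F1 lung and 8.78, 8.44 and 8.55 in DBA_F1 lung (-0.12 ± 0.095, adjusted p = 0.563). DBA_F1 replicate 1 was its highest array, which when left out gave a difference of -0.0235, while leaving out DBA_F1 replicate 2 gave -0.19. Its relative Ak8 had a difference of -0.0008. Fam183b had 8.02, 8.21 and 8.03 in AKR_F1 lung and 8.23, 8.04 and 8.01 in DBA_F1 lung, the closest groups after those of Ak8 (-0.0071 ± 0.083). Pifo, a regulator of cilia, had -0.19 ± 0.088, and Meig1, known from sperm formation in mouse, had -0.12 ± 0.14.

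**Figure D3:**
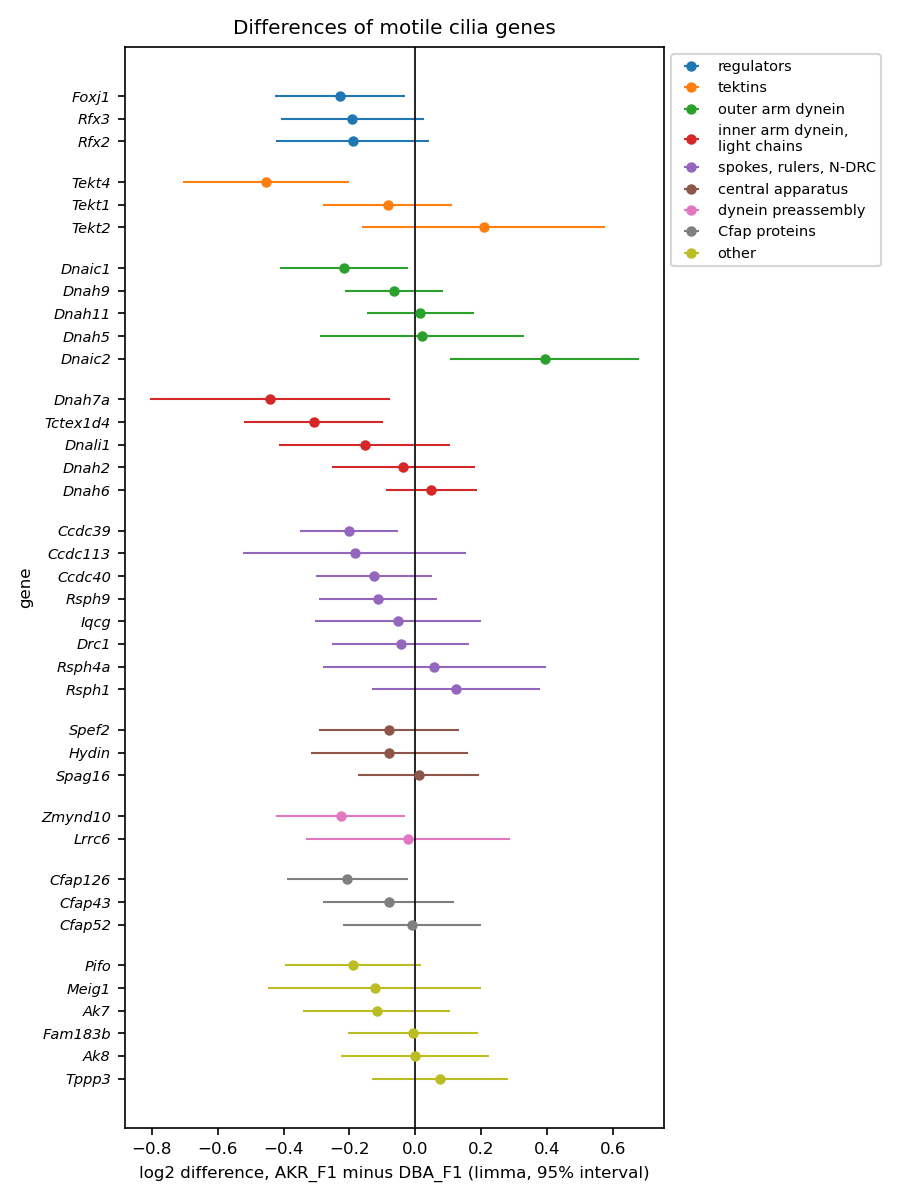
Difference of each tested cilia gene (AKR_F1 minus DBA_F1, log2) with its 95% interval from limma, grouped and coloured by role. Points run from -0.45 (Tekt4) to 0.39 (Dnaic2), and 29 of 38 lie left of 0.

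The intervals bound what these arrays could have missed. All 38 intervals lay inside -1 to 1 log2, and 32 of them lay inside -0.5 to 0.5. Below the filter, Ccdc65, an N-DRC subunit, had 4.44, 4.45 and 4.42 log2 in AKR_F1 lung, against 4.71, 4.59 and 4.64 in DBA_F1 lung. It lay just outside the filter, with Dnah7a just inside it, and when all 45037 probe sets were tested it had -0.21 ± 0.081 (adjusted p = 0.297). Spag17 (-0.17) and Spag6 (0.024), both genes of the central apparatus, had at most 3.73 on any array. A second gene closely related to Spag6 exists in mouse, so its probe set may not separate them.

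Cilia genes shared an order of arrays within both groups. Within AKR_F1, replicate 2 had the highest value in 33 of 38 genes (86.8%), as in 42.1% of all tested genes. Within DBA_F1, replicate 1 had the highest value in 26 of 38 (68.4%), beside 41.4% of all tested genes, and replicate 2 the lowest in 26 (68.4%), beside 37.3%. Both held at once, highest on AKR_F1 replicate 2 and on DBA_F1 replicate 1, in 22 of the 38 genes and in 17.0% of all genes. Averaged over the 38 genes, the 3 AKR_F1 arrays had 6.51, 6.68 and 6.52 log2, against 6.74, 6.57 and 6.66 on the 3 DBA_F1 arrays. AKR_F1 replicate 2 lay above 2 of the 3 DBA_F1 arrays. The gap between group means, 6.57 ± 0.10 in AKR_F1 and 6.66 ± 0.089 in DBA_F1 (SD, n = 3 each), was no larger than the spread within a group.

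**Figure D4:**
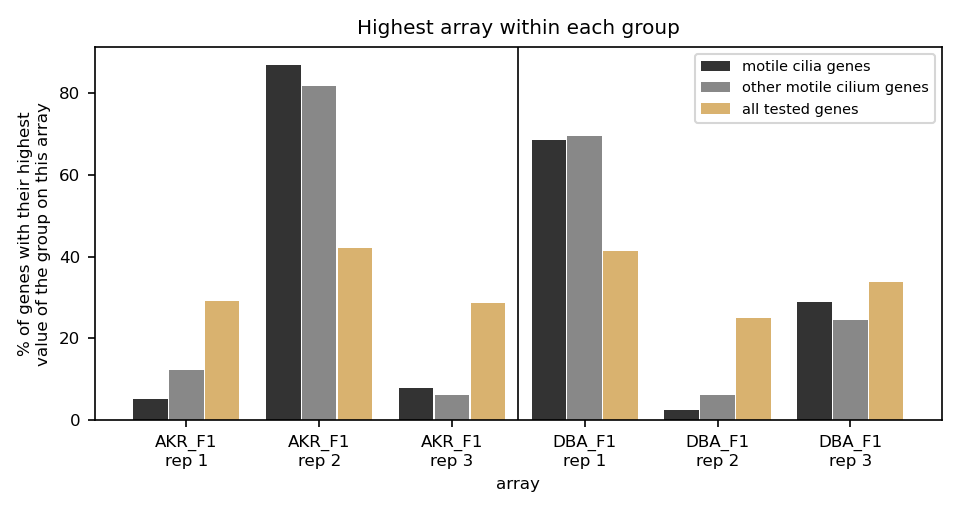
Percentage of genes whose highest value within their group of 3 arrays fell on the array named below, for the 38 cilia genes (black), 49 other motile cilium genes (grey) and all 13202 tested genes (tan). AKR_F1 replicate 2 (86.8% of cilia genes) and DBA_F1 replicate 1 (68.4%) stand out, and in all tested genes they hold 42.1% and 41.4%.

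Another 65 motile cilium genes lay outside the list. Of the 49 that were tested, 0 were called by limma and 9 had an unadjusted p under 0.05, all lower in AKR_F1, as in 8.41% of all tested genes. Their median difference was -0.10 (-0.18 without AKR_F1 replicate 2), with 40 negative and 9 positive. AKR_F1 replicate 2 was the highest AKR_F1 array in 40 of the 49 and DBA_F1 replicate 1 the highest DBA_F1 array in 34. The kinase gene Stk33 had -0.53 ± 0.14 (adjusted p = 0.114), and Morn5 had -0.42 ± 0.18 (adjusted p = 0.268). Ttc25, which helps dock outer dynein arms, had 4.69, 4.70 and 4.75 log2 in AKR_F1 lung, against 5.31, 5.12 and 5.04 in DBA_F1 lung. It had -0.44 ± 0.092 (adjusted p = 0.0600), with adjusted p = 0.0360 under array weights, 0.0451 without a variance trend, and 0.0612 to 0.198 with 1 array left out. Its AKR_F1 mean of 4.71 was under the filter level, so it was tested through its DBA_F1 signal, and the size is as uncertain as that of Dnah7a.

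Genes of centriole amplification and of transport into cilia were also read. Of 13 tested genes for the multiciliated cell programme and centriole amplification, 0 were called and 8 were negative, with a median of -0.056. Their order of AKR_F1 arrays was another one, with replicate 2 highest in 4 of the 13 and lowest in 6, while DBA_F1 replicate 1 was the highest DBA_F1 array in 10. Among them Cenpj, needed for centriole growth, had 0.34 ± 0.085 (adjusted p = 0.0985), while Foxn4 (-0.32 ± 0.14) and Deup1 (-0.31 ± 0.093), which acts in centriole amplification, had the opposite sign. At an unadjusted p under 0.05 there were 2 of the 13, Cenpj and Deup1. Of all tested genes, 8.41% were lower in AKR_F1 at that level and 10.7% higher. Intraflagellar transport and BBSome genes, which serve non-motile primary cilia as well, had a median of -0.040 over 36 tested genes, with 0 called and 2 at an unadjusted p under 0.05. Their largest differences were those of Ift52 (-0.20), Kif3b (0.17) and Dync2li1 (-0.15).

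Markers of other airway cells had negative differences as well. All 12 club and secretory markers had negative differences (median -0.16), and 1 was called, the secretoglobin Scgb3a1 (-1.21, adjusted p = 0.0323). They averaged 11.10, 11.51 and 11.26 log2 in AKR_F1, against 11.97, 11.94 and 11.57 in DBA_F1, without overlap, and AKR_F1 replicate 2 was again the highest AKR_F1 array in 11 of 12. Among 5 tested cartilage markers, as found in walls of large airways, 1 was called, Chad (-0.94 ± 0.18, adjusted p = 0.0445). The mean of these 5 was 5.39, 5.66 and 5.49 in AKR_F1 and 6.10, 6.25 and 5.54 in DBA_F1. Comp, which is among them, had an AKR_F1 mean (4.58) under the filter level, so it was tested through its DBA_F1 signal. Another 5 cartilage markers lay below the filter. The part of these cells and tissues in the cilia gene differences was not tested. Alveolar markers had the opposite sign, with 10 of 11 differences positive and a median of 0.17. Of these markers, 5 were higher on all AKR_F1 arrays, as in 14.2% of all tested genes. The gene Pdpn (-0.11) was lower on all AKR_F1 arrays, as in 10% of all tested genes. Of the 11, 2 were called higher in AKR_F1, the surfactant protein gene Sftpb (0.32 ± 0.057, adjusted p = 0.0371) and the protease gene Napsa (0.34 ± 0.064, adjusted p = 0.0437). General epithelial markers, 8 genes, had a median of 0.086 and 0 called. Over all tested genes, 2.48% were called. With 1 array left out, Scgb3a1, Sftpb and Napsa were each called in 2 of 6 fits and Chad in 1, with every difference of these 4 genes on its own side of 0.

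Tissue markers with large array differences had another order of arrays than the cilia genes. AKR_F1 replicates 1 and 3 had nearly equal cilia means (6.51 and 6.52), while their squamous means were 4.71 and 9.90 and their skeletal muscle means 5.73 and 10.69. Basal airway markers averaged 5.21, 5.18 and 7.39 in AKR_F1 and 7.19, 7.74 and 6.86 in DBA_F1. Adipocyte markers, of which 6 of 8 were called (2.48% of all tested genes were), had 7.47, 6.59 and 6.48 in AKR_F1 and 8.78, 9.37 and 8.28 in DBA_F1. Of those 6, Pck1 and Lep had AKR_F1 means (4.43 and 4.50) under the filter level, so they were tested through their DBA_F1 signal. DBA_F1 replicate 2, the highest array for adipocyte, squamous and basal markers, was the lowest DBA_F1 array for cilia genes. AKR_F1 replicate 3 and the DBA_F1 arrays were alike in squamous signal but not in adipocyte signal (6.48 against 8.28 to 9.37). The part of these tissues in the cilia gene differences was not tested. With AKR_F1 replicate 3 alone against DBA_F1, the median difference of the 38 cilia genes was -0.13. A single array has no spread of its own, so that value is given without a test.

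**Figure D5:**
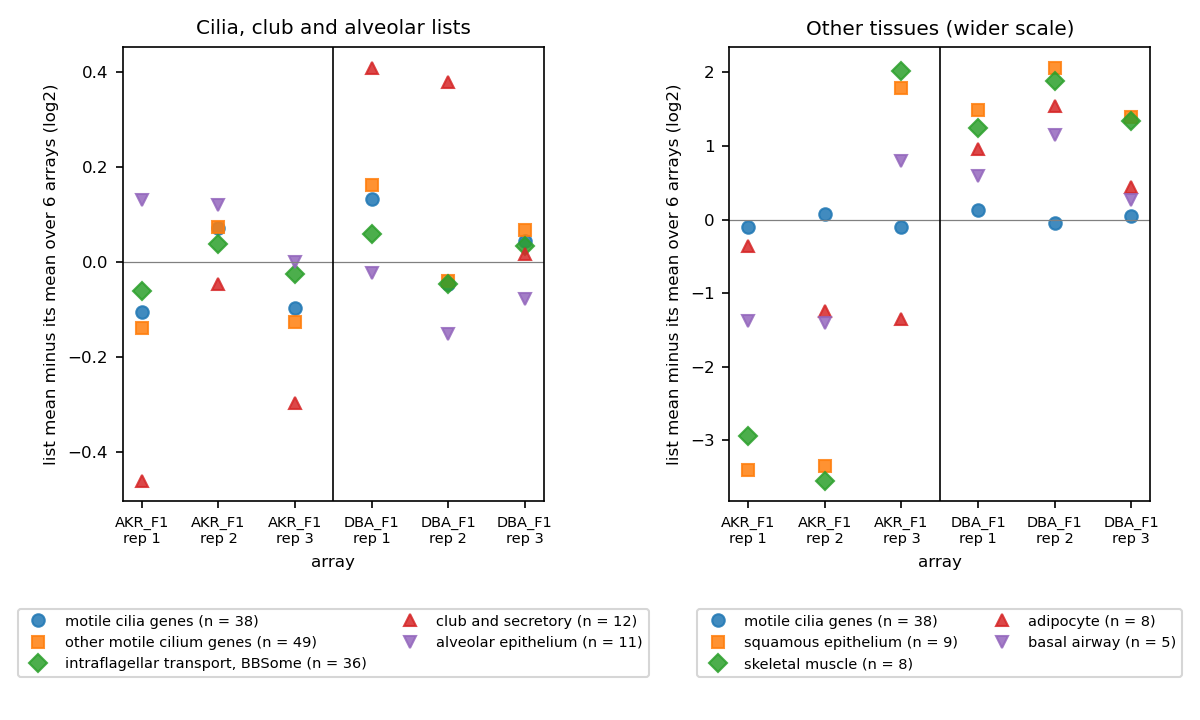
Mean log2 signal of each gene list on each array minus its mean over the 6 arrays, AKR_F1 left of the vertical line and DBA_F1 right of it, for cilia, club and alveolar lists (left) and for lists of other tissues beside the cilia genes (right, wider scale). The motile cilia genes and the other motile cilium genes peak on AKR_F1 replicate 2 and DBA_F1 replicate 1, and squamous and muscle lists separate AKR_F1 replicates 1 and 2 from the other 4 arrays.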

How the data were processed

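Lung RNA was labelled with biotin and read on 6 Affymetrix expression arrays, per the labels. The deposited values are log2 signals, 1 per probe set and array, and MAS5 and RMA are both listed, without versions, in the submitters' processing notes. The scale was read from the values, whose array medians were nearly equal, and they were used as deposited. Detection calls were not used here. Precision is limited by having 3 arrays a group.

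Control probe sets (64) were removed from the table, which left 45037. A filter then dropped the dimmest 40% (array mean of 4.72 or less), and 27022 probe sets were tested. Of all 45037, 34945 had 1 gene symbol in the platform annotation, 932 several and 9160 none. Probe sets were fitted with limma 3.58.1 in R 4.3.3 (lmFit, eBayes with a mean-variance trend, group as the only term, two-sided). P-values were adjusted by Benjamini-Hochberg over all 27022 probe sets, and those under 0.05 were called. The fit was tested on simulated data. Named genes were all called genes of the list (there were none), the 10 largest differences, the 5 brightest, regulators and tektins, and of other lists the called genes or else the 3 largest differences. Other genes are named for completeness. The members, lists and promoter letters were chosen with earlier results of these data known. The alternatives were other scalings, filters, variance priors, array weights, a replicate block, other probe set summaries, and fits without arrays.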

Additional observations from a re-analysis of the deposited data

How the results depend on the processing

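Under 17 alternatives the count of called genes among the tested cilia genes stayed at 0 (with AKR_F1 replicate 3 alone the spread comes from DBA_F1 only, so that 0 says little) and their median difference stayed negative, from -0.14 to -0.048. Of 284 differences of named genes under these alternatives, 278 kept their direction and none was called. Those that turned sign were Fam183b (0.0079 with array weights, and -0.070 to 0.059 with 1 array left out), Tppp3 (-0.024 to 0.15 with 1 array left out) and Tekt2 (-0.0036 with AKR_F1 replicate 3 alone against DBA_F1). Genes lower on all AKR_F1 arrays numbered 9 to 19 with 1 array left out. They numbered 11 with no filter, 7 with arrays centred on their medians and 6 with a 60% filter. Genes higher on all AKR_F1 arrays numbered 1 to 3 with 1 array left out (3 without DBA_F1 replicate 1, 2 without AKR_F1 replicate 3), and 0 with a 60% filter, which left 21 of the list. Shares of all tested genes were not counted under these alternatives, so the counts have no baseline. The count of called genes among other cilium genes was 1, Ttc25, without a variance trend and with array weights. The cause of these shifts was not tested, except that fewer arrays or genes enter some counts by construction. The replicate block gave 0 called cilia genes and the same median of -0.081. Replicate numbers showed no consistent sign of pairing. The deviations of same-numbered arrays from their group means correlated at 0.311, -0.228 and -0.0497, and with 3 arrays a group these values cannot exclude it. Signal near or below 4.72 has no stated limit of background, and 3 arrays a group bound each difference only to the intervals given. The values of Scgb3a1, Chad, Napsa, Sftpb and Ttc25 with 1 array left out were an alternative chosen after seeing the data.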
